A study of Mus musculus with 3 samples.

Results

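The genes of MHC class I antigen presentation were followed through the irradiated mouse lung, cell type by cell type. The set was a fixed list of 10 genes out of 22954 measured: H2-K1, H2-D1, B2m, Tap1, Tap2, Tapbp, Psmb8, Psmb9, Psmb10 and Nlrc5. All 10 had values above 0 in each of the 3 libraries. The lungs came from 3 female wild type C57BL6/J mice, 1 mouse and 1 library per condition, whose thorax had received a nominal 13 Gy and whose lungs were taken 5 months later. The CONV mouse was irradiated at a conventional dose rate, the FLASH mouse at an ultra-high dose rate. The CONV AsiDNA mouse was irradiated at the conventional dose rate and had been injected with AsiDNA, an oligonucleotide decoy that mimics a DNA double-strand break, with 100 mg/kg daily for 2 days and 200 mg/kg when irradiated. All 3 mice were irradiated and carry the same nominal dose in the labels; the dose delivered to each was not used here, and non-irradiated lungs were not analysed here. Every difference is therefore one between single mice. No test between conditions could be made and no p-value is given.

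Class I molecules display peptides from the cell's own proteins to CD8 T cells, and their absence can be sensed by NK cells. Peptides are cut by the proteasome, carried into the endoplasmic reticulum by the TAP transporter and loaded onto a heavy chain paired with beta-2 microglobulin. Interferon gamma induces most of the pathway, and Nlrc5 is its transcriptional activator. In the lung, most cells display class I, with leukocytes and endothelium known for high levels.

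H2-K1 (chr17:33996017-34000347, minus strand) and H2-D1 (chr17:35262730-35267499, plus strand) encode the heavy chains, and B2m (chr2:122147686-122153083, plus strand) the light chain. Tap1 (chr17:34187553-34197225, plus strand) and Tap2 (chr17:34203527-34216321, plus strand) together encode the peptide transporter, and Tapbp (chr17:33915899-33929292, plus strand) encodes tapasin, which bridges the transporter and the empty heavy chain. Psmb8 (chr17:34197721-34201454, plus strand), Psmb9 (chr17:34181987-34187764, minus strand) and Psmb10 (chr8:105935735-105938444, minus strand) are the inducible catalytic subunits that turn the proteasome into the immunoproteasome. Nlrc5 (chr8:94434356-94527272, plus strand) encodes the activator. Positions are those of whole genes in the GENCODE annotation of GRCm38. Of the genes, 7 lay on chromosome 17 in the mouse MHC and its flank, and Psmb9, Tap1, Psmb8 and Tap2 filled a stretch of 34335 bases. Tap1 and Psmb9 are read outward from a shared region. Their RefSeq start sites lay 226 bases apart, and their promoter windows shared 275 bases.

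The promoters of the heavy chains and the light chain are shown because these 3 genes encode the displayed molecule itself. Each is a RefSeq window (GRCm38.p6) from 250 bases before to 50 bases after the start site. It is written 5′ to 3′ on the gene's own strand. For H2-K1 the first of 2 listed windows is shown. H2-K1 is chr17:34000298-34000597 on the minus strand, H2-D1 is chr17:35262844-35263143 on the plus strand and B2m is chr2:122147437-122147736 on the plus strand. Capitals mark the kappaB element GGGGATTCCCC and the interferon response element AGTTTCACTT in the heavy chain genes, and the interferon response core GAAANNGAAA in B2m.
H2-K1: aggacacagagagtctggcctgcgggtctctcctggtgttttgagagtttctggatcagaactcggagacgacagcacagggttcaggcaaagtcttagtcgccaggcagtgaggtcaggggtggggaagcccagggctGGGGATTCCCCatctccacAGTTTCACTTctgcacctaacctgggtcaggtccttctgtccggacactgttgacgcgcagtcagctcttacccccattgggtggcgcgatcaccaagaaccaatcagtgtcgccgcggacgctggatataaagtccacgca
H2-D1: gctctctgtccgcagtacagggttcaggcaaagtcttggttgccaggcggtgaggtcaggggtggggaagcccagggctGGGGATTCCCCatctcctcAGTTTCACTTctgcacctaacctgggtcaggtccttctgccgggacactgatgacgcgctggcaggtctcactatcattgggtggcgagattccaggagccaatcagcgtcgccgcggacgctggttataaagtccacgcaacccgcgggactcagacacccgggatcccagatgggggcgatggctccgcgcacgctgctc
B2m: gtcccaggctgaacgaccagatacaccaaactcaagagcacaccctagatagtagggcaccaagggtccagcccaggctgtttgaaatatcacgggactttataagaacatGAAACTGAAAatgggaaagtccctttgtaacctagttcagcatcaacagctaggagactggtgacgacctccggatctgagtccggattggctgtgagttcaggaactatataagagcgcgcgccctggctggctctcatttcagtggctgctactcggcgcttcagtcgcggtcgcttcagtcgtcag

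Each motif was searched on both strands, and none of the marked matches overlapped another. The kappaB letters were in 0.0304% of 32851 promoter windows of this length, and among the 8 class I genes with a window they were in H2-K1 and H2-D1. The letters AGTTTCACTT were taken from the H2-K1 promoter itself and occurred in 0.14% of windows, H2-D1 included. The core GAAANNGAAA occurred in 3.44% of windows, B2m included. In H2-K1 the kappaB element started 111 bases and the response element 92 bases before the start site of the window shown. In H2-D1 they started 171 and 152 bases before it. These distances depend on which start site is used, and H2-K1 had 2 windows. Over 239 aligned bases the promoters of H2-K1 and H2-D1 were 88.3% identical, with an identical run of 47 bases. These matches describe the letters only.

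Cells were sorted into classes by a gate on fixed marker genes, and class names carry "like" for that reason. The gate placed 18634 of 19619 cells in 21 classes, of which 15 had at least 50 cells in each library and were compared. Those were alveolar macrophage-like (AM-like), interstitial macrophage-like (IM-like), monocyte-like, neutrophil-like, type 2 dendritic (cDC2-like), B, T, NK, ILC2, alveolar type 1 and 2 (AT1-like, AT2-like), ciliated, club, endothelial (EC-like) and fibroblast-like cells. Median depth per cell was 3450 to 3678 adjusted counts by library, and 9 to 17 cell barcodes were shared by a pair of libraries. Depth here means the total of adjusted counts, which is not known to be the sequencing depth. A level is given as adjusted CPM, the summed adjusted counts of a gene per 1000000 of all genes in that class and library. Ratios between libraries are log2 ratios of adjusted CPM plus 10, a scale on which low genes seem to differ less than they do. A difference is called past 2-fold on that scale, where both libraries were above 0 and their sum was at least 20.

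In the deposited values some genes were at exactly 0 in whole classes, and no source used here says whether or how they had been adjusted. Genes that every cell uses were among them. Fth1, a ferritin chain, was listed at 0 in all T-like cells, Actb in all club-like cells of CONV, and Tmsb4x in all ciliated-like cells of CONV. The share of cells above 0 for such genes also differed by library within a class. Fth1 was above 0 in 12%, 84.6% and 94.6% of cDC2-like cells (libraries in the order CONV, CONV AsiDNA, FLASH), and in 12.3%, 37.1% and 51.6% of monocyte-like cells. A class I gene at 0 is therefore reported only as listed at 0. Of the 45 combinations of class and library, Nlrc5 was listed at 0 in 15, Psmb10 in 9, Psmb9 in 7, Tap1 in 6, Psmb8 in 5, B2m in 4, H2-K1 and H2-D1 in 2 each and Tapbp in 1. Tap2 was above 0 in all of them.

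**Figure D1:**
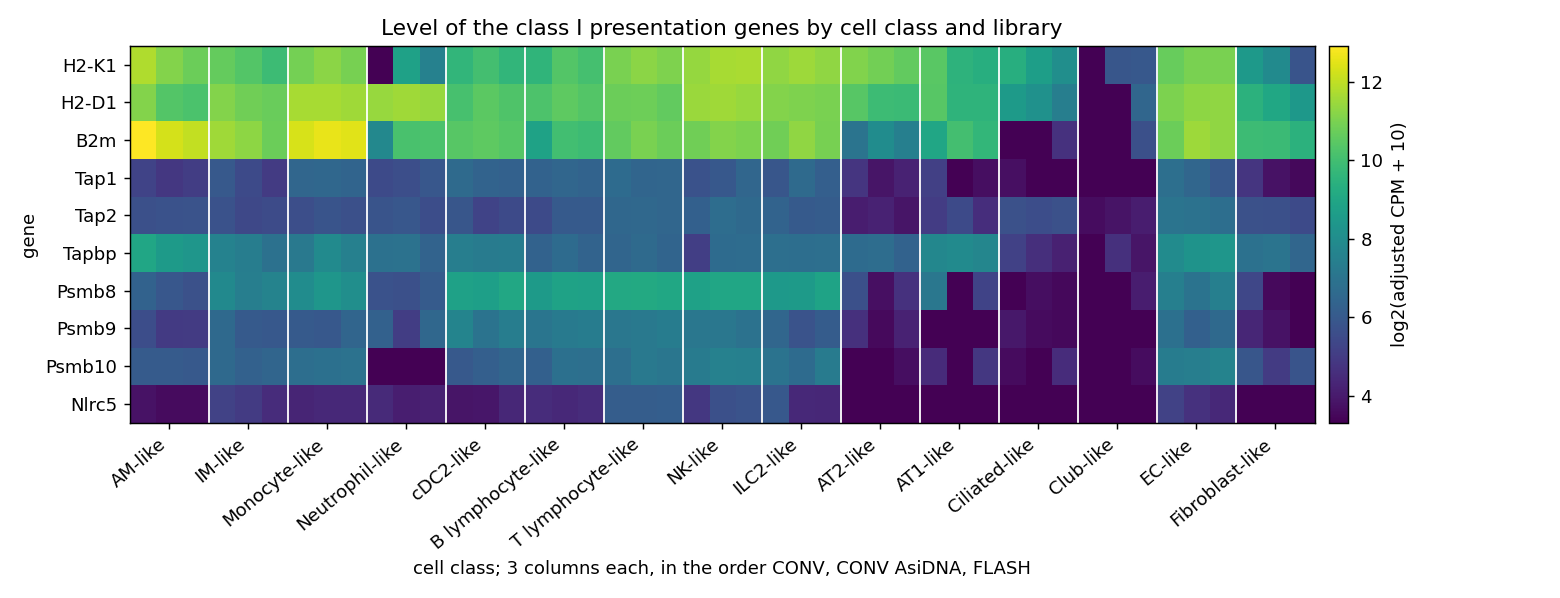
Heat map of the level of each gene, as log2(adjusted CPM + 10), in 15 cell classes with 1 column per library. The heavy chains and B2m were high in most leukocyte classes and in EC-like cells, Psmb8 was highest from cDC2-like to ILC2-like cells, and club-like cells were among the lowest classes for each gene, with up to 80.3 for H2-D1 in FLASH.

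The orders of classes that follow are over the 15 compared classes and go by the mean of the 3 libraries. A class can therefore be exceeded in a single library. What part the zeros of the deposited values had in a low rank was not tested. H2-K1 was highest in NK-like cells, at 2680 adjusted CPM in CONV against 3235 in CONV AsiDNA and 3288 in FLASH. ILC2-like cells followed with 2505 to 2855 over the libraries, and that range overlapped both neighbours in the order. AM-like cells came next in the mean and ran from 1715 to 3508, so that those of CONV had the highest level of any class and library. At the other end stood ciliated-like cells (259 to 626), fibroblast-like cells (45.9 to 351), neutrophil-like cells (0 to 439) and club-like cells (0 to 52.0). The order of classes was loose, since only 1 of 14 neighbouring pairs had ranges that did not overlap.

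H2-D1 was ordered differently. It was highest in monocyte-like cells, at 2966 to 3223, and NK-like (2767 to 2964) and neutrophil-like cells (2724 to 2938) came next. The range of monocyte-like cells lay above that of NK-like cells, and 4 of 14 neighbouring pairs were apart in all. In the deposited values neutrophil-like cells thus held one heavy chain near the top of its order and the other, H2-K1, near the bottom. H2-K1 was listed at 0 in all their CONV cells. Some genes that every cell uses were also at 0 in most neutrophil-like cells, as given below.

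B2m was highest in monocyte-like cells (5111 to 6168) and AM-like cells (4193 to 7660), whose ranges overlapped. IM-like cells, at 1715 to 2990, stood apart below them. AT2-like cells were low, at 118 to 244, although the heavy chain H2-K1 reached 1532 to 2143 in the same cells. In AT2-like cells B2m was above 0 in 5.9%, 27.2% and 19.6% of cells in CONV, CONV AsiDNA and FLASH, against 93.4%, 90.4% and 89.4% for H2-K1.

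The immunoproteasome subunits had different orders of classes. Psmb8 was highest in lymphoid and cDC2-like cells, at 519 to 550 in T-like cells, 438 to 501 in NK-like cells and 416 to 525 in cDC2-like cells. It was at 41.9 to 71.7 in AM-like cells and at 0 to 2.69 in ciliated-like cells. Psmb9 was highest in cDC2-like (117 to 189), T-like (131 to 153) and B-like cells (122 to 153), whose ranges overlapped, and was listed at 0 in AT1-like and club-like cells of all libraries. Psmb10 was highest in EC-like cells (152 to 185), overlapping NK-like cells (149 to 174), and listed at 0 in neutrophil-like cells of all libraries. Neighbours in these orders were apart in 5, 3 and 3 of 14 pairs.

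Tap1 was highest in the mean in T-like cells, at 78.0 to 91.8. The ranges of monocyte-like (74.4 to 81.9), EC-like (54.4 to 101.8), cDC2-like (69.2 to 89.97), B-like (69.98 to 80.2), ILC2-like (49.3 to 89.8) and NK-like cells (43.3 to 80.2) overlapped it, and the highest single level was that of EC-like cells of CONV. Tap2 was highest in EC-like cells, at 101 to 119. It reached 38.7 to 42.2 in ciliated-like cells, where Tap1 was at 2.96 in CONV and listed at 0 in the other libraries. Tapbp was highest in AM-like cells, at 319 to 494, and EC-like cells (238 to 319) stood next below without overlap.

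Nlrc5, the activator, had its highest level in T-like cells, and there the 3 libraries were nearly equal at 61.2, 61.2 and 62.2. NK-like cells (19.3 to 44.7) and ILC2-like cells (10.7 to 52.4) followed, below T-like cells in each library. It was listed at 0 in AT2-like, AT1-like, ciliated-like, club-like and fibroblast-like cells of all libraries, while AT2-like cells of those libraries had 910 to 1357 of H2-D1.

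Classes with fewer than 50 cells in a library are described without ratios. In cDC1-like cells (41, 132 and 95 cells), which take up and cross-present antigen, Psmb8 was at 1144, 990 and 916 and Psmb9 at 629, 640 and 633 in CONV, CONV AsiDNA and FLASH. In the mature dendritic-like cells (15, 55 and 18 cells) Psmb8 was at 1718, 1391 and 1427, and Nlrc5 at 111, 128 and 170. Psmb9 was at 541, 529 and 497 there. Both classes exceeded every compared class for Psmb8 and Psmb9, and the mature dendritic-like cells also for Nlrc5. Mast cell- or basophil-like cells of CONV (115 cells) had H2-D1 at 938 and of CONV AsiDNA (78 cells) at 998, whereas all 10 genes were listed at 0 in the 26 such cells of FLASH. Of the genes that every cell uses, Eef1a1 and Tpt1 were above 0 in all 26, and Actb in 69.2%, Gapdh in 38.5% and Fth1 in 34.6% of them. Mesothelial-like cells (16, 45 and 38 cells) had H2-K1 at 2529, 2010 and 1616, and pericyte- and smooth muscle-like cells (45, 55 and 40 cells) had it at 22.6, 40.8 and 0. The plasma-like class held only 2, 3 and 2 cells and is not described.

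The genes varied together across classes to different degrees. Over the 45 class-by-library profiles, which share 3 libraries and their depth, Pearson's r of log2(adjusted CPM + 10) was 0.93 between Tap1 and Psmb8, 0.92 between Tap1 and Psmb9 and 0.91 between Psmb8 and Psmb9. These 3 genes lie side by side on chromosome 17. Tap2, which lies next to Psmb8 in the same stretch, had an r of 0.67, 0.60 and 0.67 with Tap1, Psmb8 and Psmb9. Psmb10 and Nlrc5, on chromosome 8, had 0.81 and 0.78 with Psmb8. What part position had in these values was not tested. H2-K1 and H2-D1 had an r of 0.69. The lowest value, 0.18, was between Tapbp and Nlrc5. Against the mean of the other 9 genes, r ran from 0.61 for Tapbp to 0.88 for Tap1. Among 3274 other genes with a mean of at least 50 adjusted CPM, the profiles most like the mean of the set were H2-T23 (r = 0.88), which encodes the nonclassical class I molecule Qa-1, Arid1a (0.87), a chromatin remodelling subunit, Fli1 (0.87), an ETS transcription factor, H2-T22 (0.86), another nonclassical heavy chain, and Git2 (0.86), a GTPase-activating protein.

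**Figure D2:**
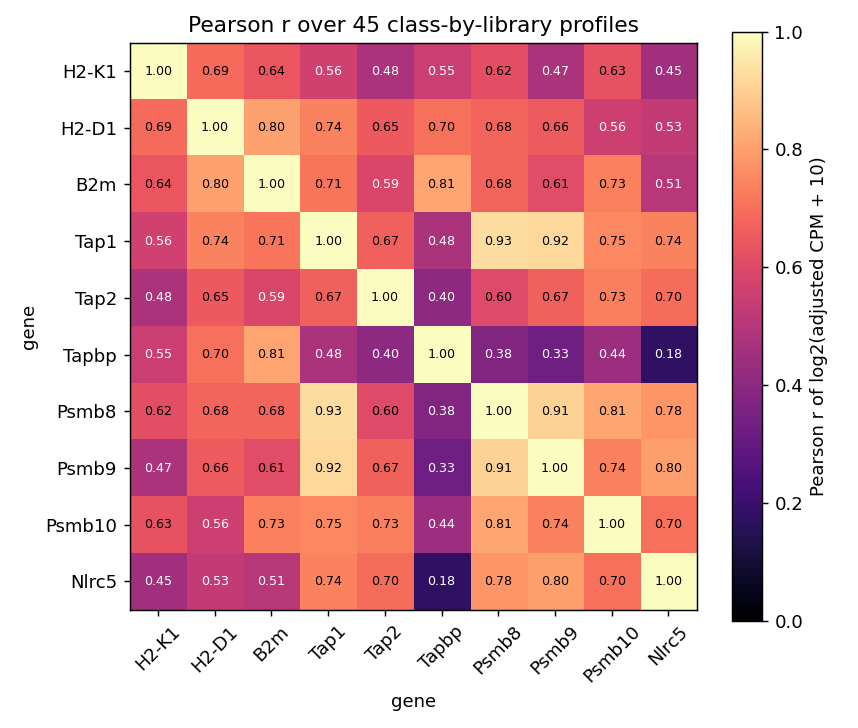
Pearson's r between the 10 genes over 45 class-by-library profiles of log2(adjusted CPM + 10). The block of Tap1, Psmb8 and Psmb9 held the highest values, 0.91 to 0.93, and Tapbp with Nlrc5 the lowest, 0.18.

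The first comparison across conditions asked how far CONV lay from the other libraries for these genes, over all classes. Of 150 combinations of gene and class, 117 could be compared in each pair. In CONV over CONV AsiDNA 4 were past 2-fold higher and 4 lower, a share of 8 in 117 beside 6.4% of all gene and class values. In CONV over FLASH 8 were higher and 3 lower, 11 in 117 beside 7.02%. In CONV AsiDNA over FLASH 2 were higher and 1 lower, 3 in 117 beside 2.56%. By direction, 2.58%, 3.42% and 1.58% of all values were higher in these pairs, and 3.82%, 3.60% and 0.98% lower. The share of 8 in 117 higher in CONV over FLASH was above its 3.42%, and this was not tested. Past 2-fold in either direction, the shares of the set were near those of all genes in each pair. The medians were -0.01, 0.05 and 0.10 on the log2 scale beside -0.05, -0.01 and 0.03 for all genes. The counts therefore give no result for the set as a whole, and the values past 2-fold lay in both directions. The CONV library is part of both of the first pairs, so their values are not independent.

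**Figure D3:**
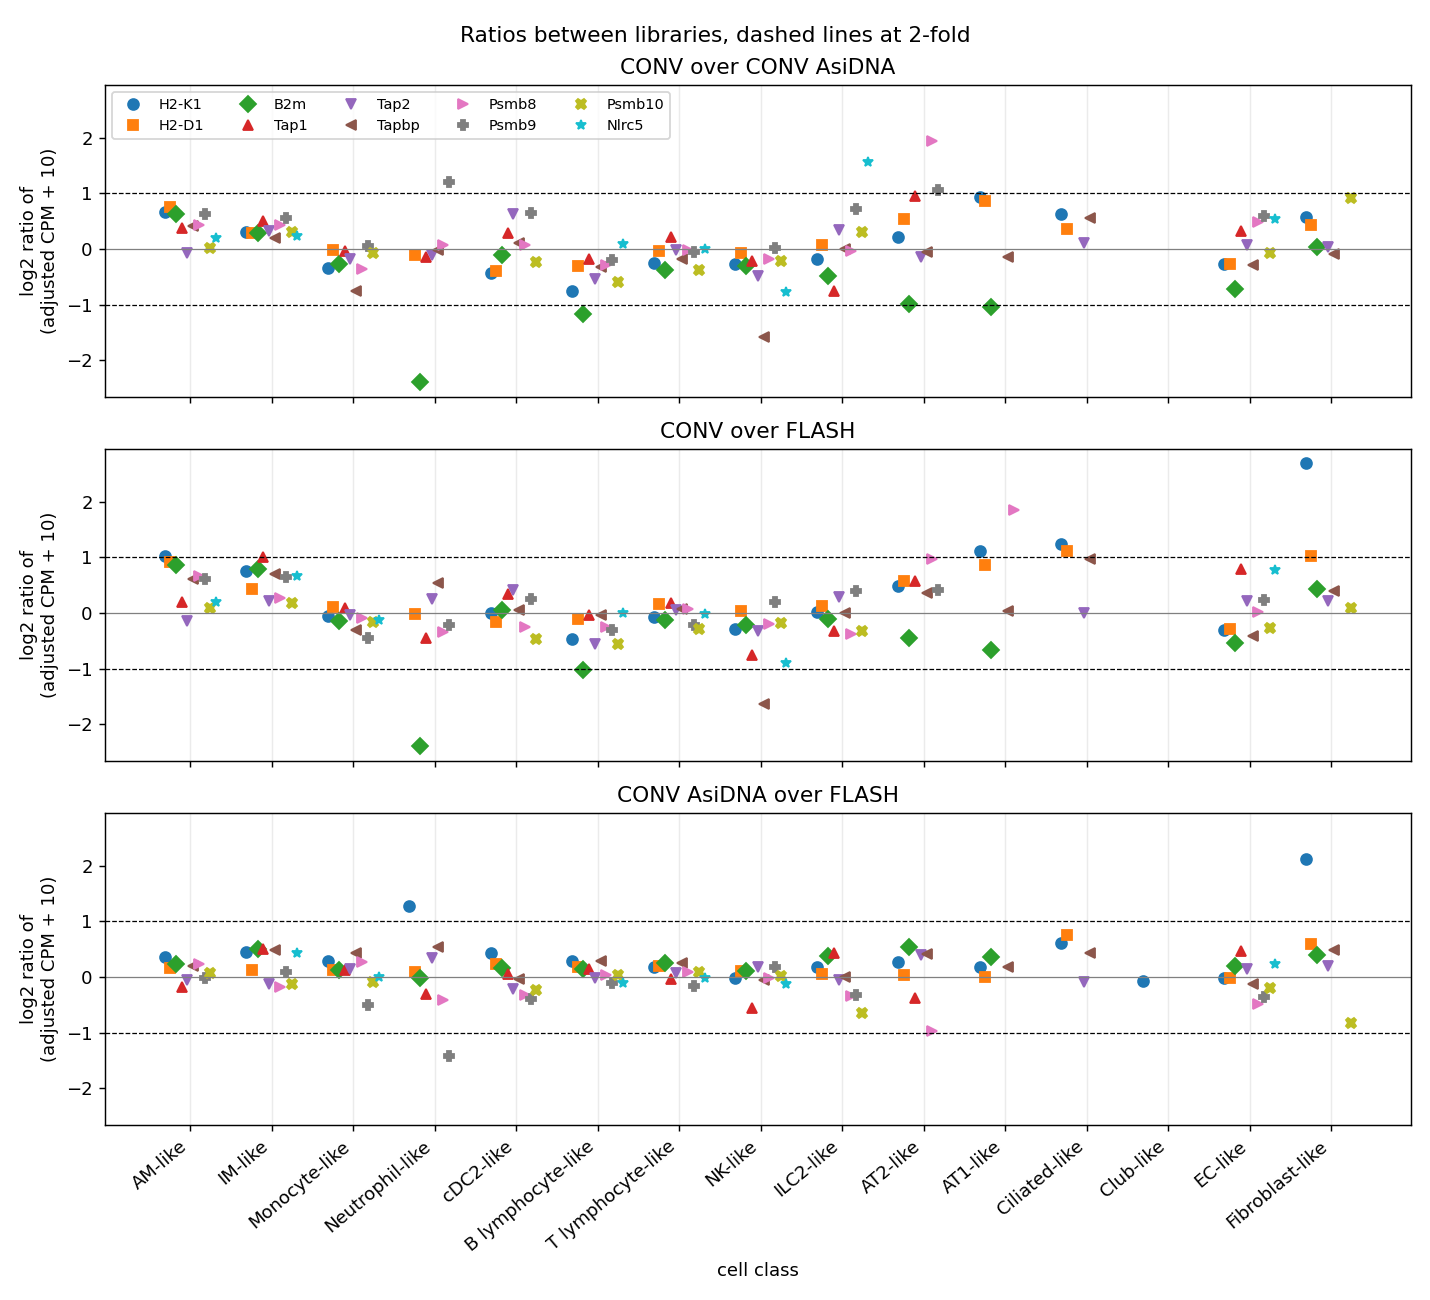
Log2 ratio of (adjusted CPM + 10) for each gene and class in the 3 pairs of libraries, with dashed lines at 2-fold. AM-like and IM-like cells lay mostly above 0 in both CONV pairs, B-like and NK-like cells mostly below, and the CONV AsiDNA over FLASH pair had 3 values past the lines.

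AM-like cells had more of both heavy chains and of B2m in CONV. H2-K1 was at 3508 in the 982 cells of CONV, 2205 in the 658 of CONV AsiDNA and 1715 in the 479 of FLASH. H2-D1 was at 2216, 1302 and 1169. B2m was at 7660, 4955 and 4193. CONV was the highest library for each of these genes and FLASH the lowest. The median AM-like cell held 17 adjusted counts of H2-K1 for CONV (quartiles 11 and 23.75), 9 for CONV AsiDNA (6 and 14) and 7 for FLASH (4 and 11), so the cells of different libraries overlapped widely while the upper quartiles of CONV AsiDNA and FLASH lay below the CONV median. Median depth per AM-like cell was 5224, 4993 and 5017.

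Tapasin and the immunoproteasome subunits were also highest in CONV in AM-like cells. Tapbp was at 494, 367 and 319, Psmb8 at 71.7, 51.0 and 41.9, and Psmb9 at 38.1, 21 and 21.6. Psmb10 was nearly level at 57.5, 56.8 and 53.3, and Tap2 was lowest in CONV at 40.1, 42.9 and 45.3. Nlrc5 was low in AM-like cells, at 3.95, 2.16 and 2.12. CONV was above both other libraries for 9 of 10 genes, all but Tap2, beside 24.9% of all genes in this class, though not within either of the clusters described next. Only H2-K1 was past 2-fold, against FLASH, with a log2 ratio of 1.03. Over all genes of this class the median log2 ratio was -0.19 against CONV AsiDNA and -0.16 against FLASH, and all 10 genes were above both after centring on that median.

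AM-like cells of CONV also differed in state. Gpnmb, a gene of lipid-laden macrophages, was above 0 in 69.1% of them, and in 37.2% of CONV AsiDNA and 48.0% of FLASH cells. The difference in the heavy chains was present on both sides of that split. With Gpnmb above 0, H2-K1 was at 3563, 2555 and 1917. With Gpnmb listed at 0, it was at 3380, 1987 and 1518. In a joint clustering of all libraries, a pair of clusters had mostly AM-like cells among their gated cells. Counting every cell of a cluster, gated or not, as for all clusters here, one held 958, 133 and 69 cells and the other 132, 539 and 407, so most of the CONV cells lay in one and most of the others in the other. Within the first, H2-K1 was at 3432, 2880 and 2422, and within the second at 3037, 2003 and 1561. CONV was highest in both for H2-K1, H2-D1, B2m, Tapbp and Psmb9. Within the first cluster it was not for Psmb8 (79.9, 82.2 and 36.8), Psmb10 (61.7, 64.3 and 53.7), Nlrc5 (3.85, 7.47 and 8.48) or Tap2 (38.9, 46.3 and 28.3). Within the second it was lowest for Tap1 (13.3, 20.5 and 21.6) and Tap2 (39.8, 42.1 and 47.2).

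IM-like cells showed the same order of libraries for the chains. H2-K1 was at 1583 in the 399 cells of CONV, 1277 in the 340 of CONV AsiDNA and 934 in the 278 of FLASH. B2m was at 2990, 2446 and 1715, and H2-D1 at 2221, 1806 and 1651. Tap1 was at 53.5, 34.6 and 21.6, past 2-fold in CONV over FLASH at a log2 ratio of 1.01. For each of these genes CONV was highest, CONV AsiDNA next and FLASH lowest.

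The remaining genes of IM-like cells were also highest in CONV. Psmb8 was at 224, 163 and 185, Psmb9 at 87.0, 56.3 and 52.3, and Nlrc5 at 27.4, 21.6 and 13.5. All 10 genes were above both other libraries in CONV, beside 40.9% of all genes in this class. The median IM-like cell had 5, 4 and 3 adjusted counts of H2-K1, at median depths of 3916, 3940 and 3882. Both clusters with mostly IM-like cells had the order of the whole class for H2-K1, at 1335, 1096 and 830 in one and 2166, 1559 and 1029 in the other. H2-D1 was nearly level in the first and larger of them (315, 301 and 219 cells), at 1774, 1763 and 1658, and was at 2258, 1727 and 1452 in the other (76, 118 and 100 cells).

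**Figure D4:**
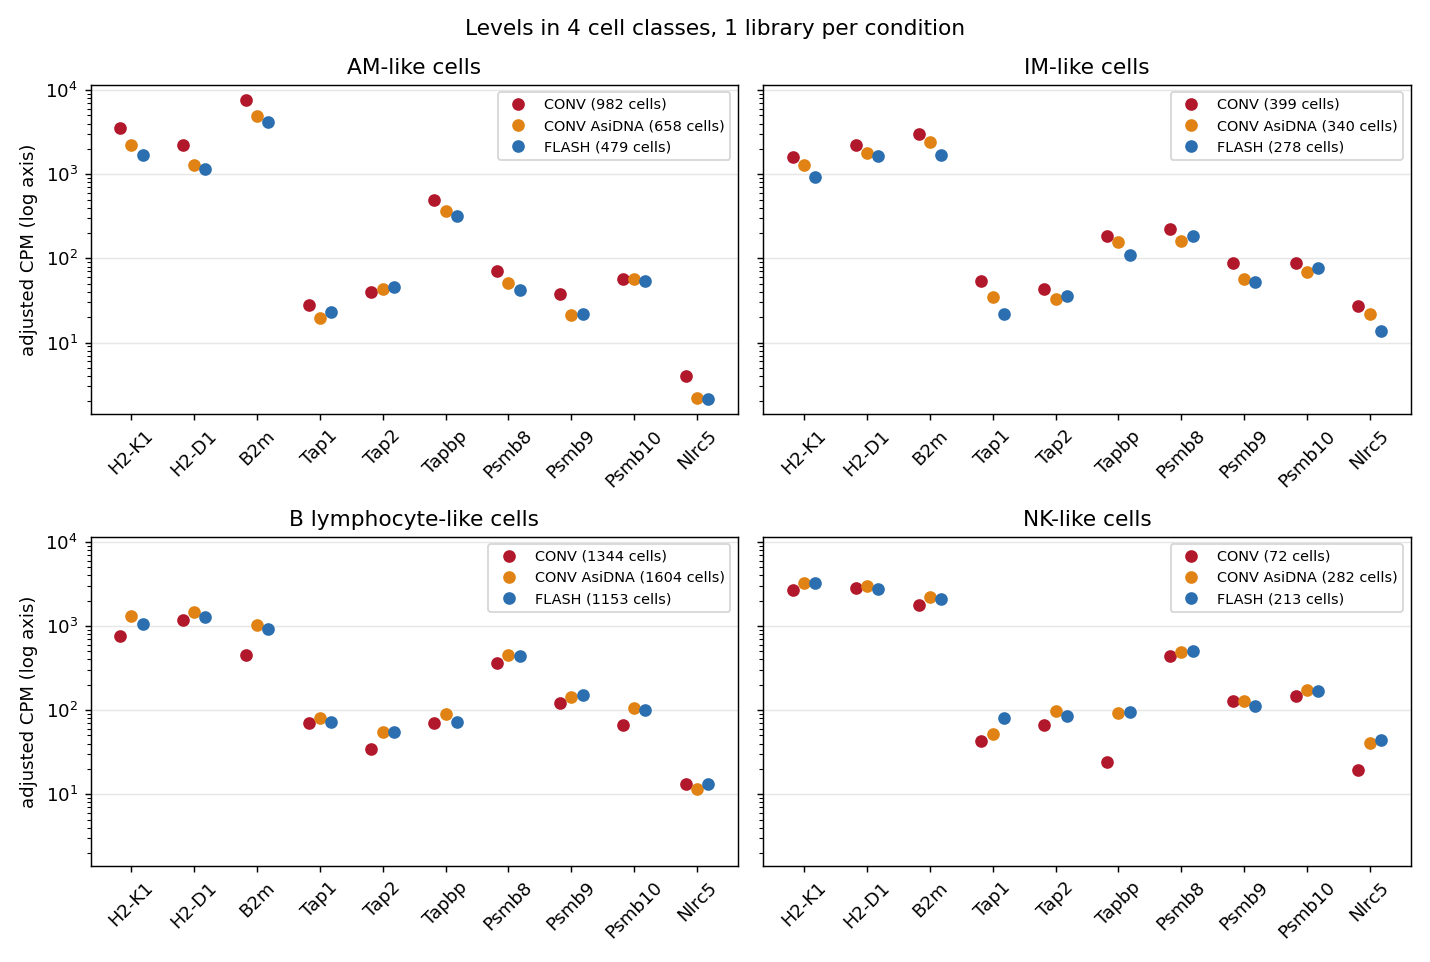
Adjusted CPM (log axis) of each gene in AM-like, IM-like, B lymphocyte-like and NK-like cells, with 1 point per library. In the macrophage classes CONV lay above both other libraries for 9 and 10 genes, and in B- and NK-like cells below both for 9 and 8.

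B-like cells went the other way. B2m was at 451 in the 1344 cells of CONV, 1021 in the 1604 of CONV AsiDNA and 929 in the 1153 of FLASH, past 2-fold in both pairs at log2 ratios of -1.16 and -1.03. It was above 0 in 40.0% of CONV cells (exact 95% interval 37.3% to 42.6%), in 73.4% of CONV AsiDNA cells (71.1% to 75.5%) and in 73.1% of FLASH cells (70.5% to 75.7%). These intervals, like all shown here, describe which cells were drawn from 1 mouse and say nothing of other mice. After thinning every cell to 1000 adjusted counts the shares were 26.3%, 53.2% and 48.9%. CONV was the low library on both measures, which come from the same adjusted counts. As these are not known to be raw counts, thinning cannot show what part sequencing depth had. Among the genes that every cell uses, Fth1 was also low in B-like cells of CONV, above 0 in 0%, 21.8% and 34.1%, and Actb was above 0 in 78.9%, 85.1% and 89.9%, while mt-Co1, at 67.9%, 55.7% and 90.6%, was lowest in CONV AsiDNA. What part this had in the B2m difference was not tested.

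H2-K1 in B-like cells was at 764, 1300 and 1064, and was above 0 in 60.6%, 85.3% and 80.0% of cells. H2-D1 was at 1178, 1450 and 1275, Tap2 at 34.4, 54.8 and 55.6, and Psmb10 at 66.1, 105 and 102. Nlrc5, at 13.2, 11.7 and 13.3, was the exception. CONV was below both other libraries for 9 of 10 genes, beside 52.9% of all genes in the class, whose median log2 ratios were -0.11 and -0.12; after centring on these medians the count was 6. The clusters with mostly B-like cells were unevenly filled, with 1083, 715 and 465 cells in one and 262, 888 and 689 in the other. B2m was at 455, 981 and 926 in the first and at 443, 1044 and 935 in the second, so the B2m difference was as large within each. Psmb9 was at 115, 134 and 137 in the first, and at 151, 142 and 160 in the second, where CONV was not lowest.

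NK-like cells of CONV numbered 72, against 282 in CONV AsiDNA and 213 in FLASH. Tapbp was at 24.1, 91.8 and 95.6, past 2-fold in both pairs at -1.58 and -1.63. Only 4 of the 72 CONV cells had it above 0, or 5.56% (1.53% to 13.6%), and in 20.6% (16.0% to 25.8%) and 19.7% (14.6% to 25.7%) of the others. H2-K1 was at 2680, 3235 and 3288, and Nlrc5 at 19.3, 40.1 and 44.7. CONV was below both other libraries for 8 of 10 genes, beside 49% of all genes. H2-D1, at 2824, 2964 and 2767, and Psmb9, at 130, 128 and 113, were the exceptions.

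Monocyte-like cells were few in CONV, with 57 against 315 in CONV AsiDNA and 411 in FLASH. Tapbp was at 135, 233 and 170, and H2-K1 at 1887, 2379 and 1950. CONV was below both for 6 of 9 genes compared, beside 42.5% of all genes, and no gene was past 2-fold. T-like cells, with 1355, 964 and 1156 cells, were close to level. H2-D1 was at 1731, 1775 and 1541 there, Psmb8 at 546, 550 and 519, and B2m at 1551, 2015 and 1701. CONV was below both for 5 of 10 genes, beside 35.2% of all genes, and none was past 2-fold. Among T-like cells with Cd8a above 0 the H2-K1 level was 1638, 2339 and 1826.

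Neutrophil-like cells held H2-D1 at nearly the same level in each library, at 2724, 2938 and 2748. The other heavy chain, H2-K1, was listed at 0 in all 266 CONV cells, and was at 439 in CONV AsiDNA and 175 in FLASH, where 34.8% (29.4% to 40.4%) and 15.1% (11.3% to 19.7%) of cells had it. B2m was at 210, 1138 and 1148, past 2-fold at -2.38 and -2.40, and above 0 in 12.4% (8.70% to 16.98%), 61.0% (55.3% to 66.5%) and 66.4% (60.8% to 71.7%) of cells. CONV was far below the others for B2m and not for H2-D1. Psmb9 was at 67.8, 23.8 and 80.8, with CONV AsiDNA past 2-fold below both other libraries at log2 ratios of 1.203 (CONV over CONV AsiDNA) and -1.43 (CONV AsiDNA over FLASH). In these cells Eef1a1, a translation factor of every cell, was above 0 in only 1.13%, 2.62% and 0.987%. Gapdh was above 0 in 53.0%, 61.6% and 71.7% of them, and Tpt1 in 61.3%, 44.9% and 33.6%.

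**Figure D5:**
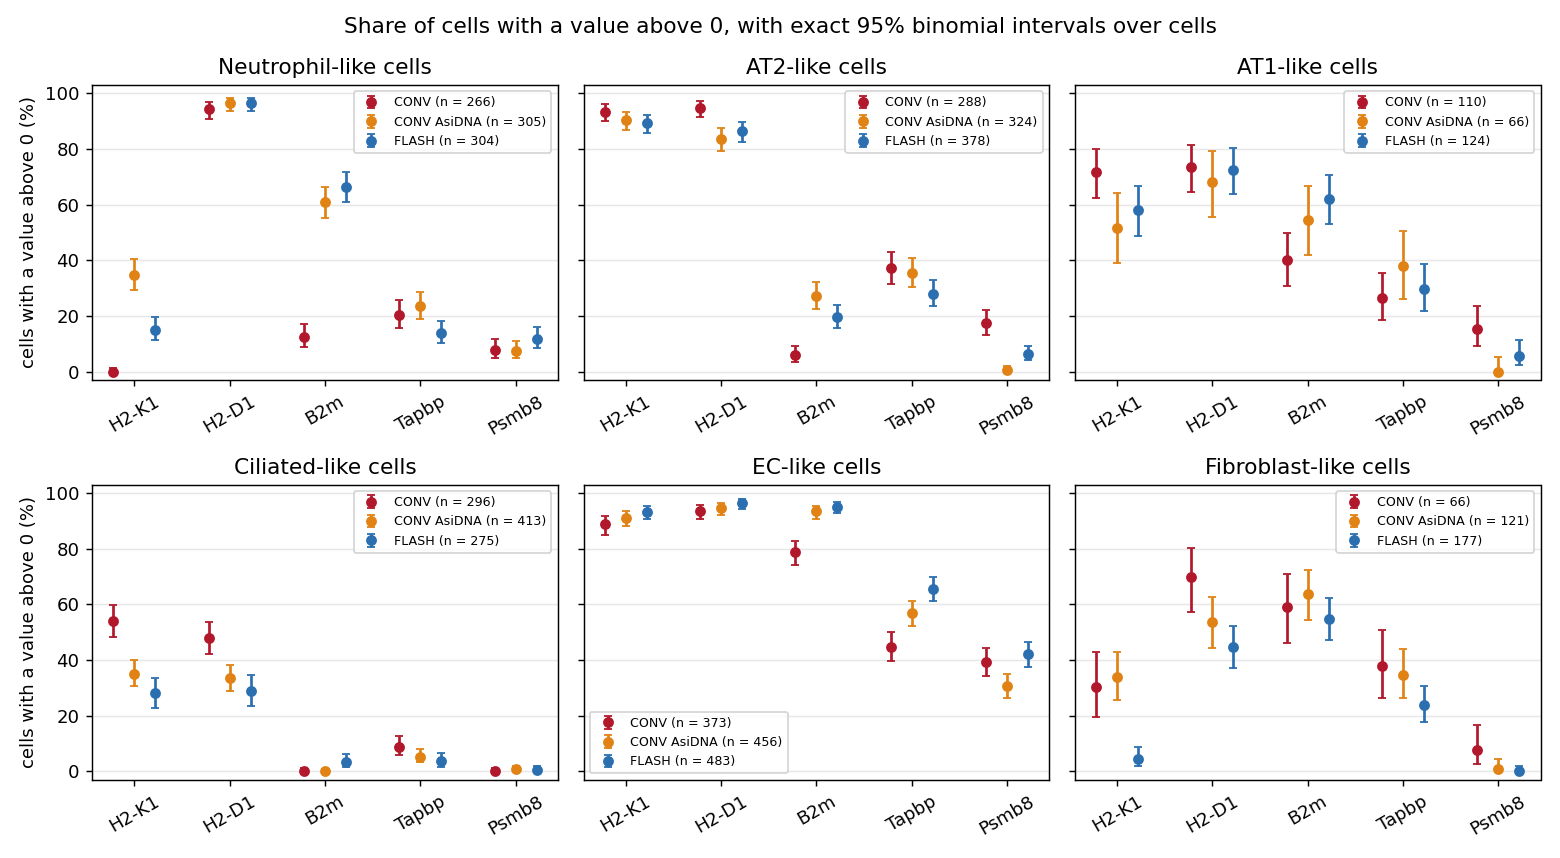
Percentage of cells with a value above 0 for 5 genes in 6 classes, with exact 95% binomial intervals over cells. Several intervals did not overlap those of the other libraries. Among them, B2m was lower in neutrophil-like, AT2-like and EC-like cells of CONV, and H2-K1 was lower in fibroblast-like cells of FLASH. Psmb8 in AT2-like cells and H2-K1 in ciliated-like cells were higher in CONV. This list is not complete.

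In ILC2-like cells (102, 105 and 56 cells) the chains were close together, with H2-K1 at 2532, 2855 and 2505 and B2m at 1821, 2540 and 1959. Nlrc5 was the one gene past 2-fold, at 52.4, 11.2 and 10.7, with a log2 ratio of 1.55 in CONV over CONV AsiDNA. It was above 0 in 14.7%, 3.81% and 3.57% of these cells. In cDC2-like cells (50, 182 and 129 cells) no gene was past 2-fold, and H2-K1 was at 778, 1047 and 778.

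AT2-like cells (288, 324 and 378 cells), the surfactant-making epithelium, had H2-K1 at 2143, 1852 and 1532 and H2-D1 at 1357, 936 and 910. Psmb8 was at 40.7 in CONV, against 3.20 in CONV AsiDNA and 16.0 in FLASH, and above 0 in 17.4% (13.2% to 22.2%), 0.617% (0.0748% to 2.21%) and 6.35% (4.11% to 9.30%) of cells. Its log2 ratio in CONV over CONV AsiDNA was 1.94, and that of Psmb9, at 14.99, 1.92 and 8.80, was 1.07. CONV was the highest and CONV AsiDNA the lowest library for both. CONV was above both for 5 of 7 genes compared, beside 46.9% of all genes. Thinned to 1000 adjusted counts, 4.17%, 0% and 1.06% of cells were above 0 for Psmb8. A leukocyte gene was above 0 in 0%, 11.7% and 16.7% of AT2-like cells. Without those cells B2m was at 118, 238 and 142, Psmb8 at 40.7, 2.90 and 14.5 and H2-K1 at 2143, 1829 and 1589, with the libraries in the same order. Fth1 was above 0 in 42.7%, 51.5% and 76.7% of AT2-like cells.

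AT1-like cells (110, 66 and 124 cells) had H2-K1 at 1403, 731 and 641, past 2-fold in CONV over FLASH at 1.12. Psmb8 was at 128 in CONV, listed at 0 in CONV AsiDNA and at 28.0 in FLASH, with a log2 ratio of 1.86 in CONV over FLASH. B2m was lower in CONV, at 504, 1041 and 809. Of the genes that every cell uses, Eef1a1 was above 0 in 76.4%, 56.1% and 50.8% of AT1-like cells. Tpt1 was above 0 in 71.8%, 47.0% and 46.8%, also highest in CONV. Others went the other way, such as Fth1 at 33.6%, 59.1% and 54.0%. What part this had in the class I differences was not tested. Leukocyte genes were present in this class. At least 1 of a list of 10 was above 0 in 28.2%, 22.7% and 40.3% of AT1-like cells, and the summed level of the list was 306, 218 and 663 adjusted CPM. Ptprc was above 0 in 26.4%, 21.2% and 37.1%. Without those cells H2-K1 was at 1394, 561 and 207, Psmb8 at 73.2, 0 and 3.84, and B2m at 192, 760 and 357, so the directions held and the level of B2m was lower in each library.

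Ciliated-like cells (296, 413 and 275 cells) had H2-K1 at 626, 401 and 259 and H2-D1 at 364, 280 and 162, past 2-fold in CONV over FLASH at 1.24 and 1.12. H2-K1 was above 0 in 54.0% (48.2% to 59.8%), 35.1% (30.5% to 39.9%) and 28.0% (22.8% to 33.7%) of cells. CONV was highest for both chains. B2m was listed at 0 in CONV and CONV AsiDNA and was at 15.6 in FLASH, where 4.36% of cells held a leukocyte gene; without those cells it was at 0.843. In club-like cells (77, 141 and 84 cells), the secretory cells of the airway, H2-D1 and B2m were listed at 0 in CONV and CONV AsiDNA. In FLASH they were at 80.3 and 40.2, but 13.1% of those cells held a leukocyte gene, and without them both were listed at 0.

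EC-like cells (373, 456 and 483 cells) divided the set. B2m was at 1736, 2876 and 2512, Tapbp at 238, 292 and 319 and H2-D1 at 2060, 2478 and 2505, lowest in CONV. Tap1 was at 102, 79.1 and 54.4, Psmb9 at 106, 66.4 and 87.7 and Nlrc5 at 27.1, 15.6 and 11.7, highest in CONV. No gene was past 2-fold, and CONV was above both other libraries for 5 of 10 genes, beside 38.4% of all genes. Actb was above 0 in 56.0%, 75.2% and 85.5% of EC-like cells, and Tpt1 in 85.8%, 71.3% and 66.5%. The share of EC-like cells with Car4, a marker of one capillary cell type, was 28.7%, 47.6% and 52.6%. With Car4 above 0, H2-D1 was level at 2922, 2931 and 2911, and Tap1 was at 162, 84.9 and 58.5. With Car4 listed at 0, H2-D1 was at 1717, 2068 and 2062, and Tap1 at 77.8, 73.8 and 49.9. One cluster with mostly EC-like cells was nearly all CONV, with 132, 23 and 1 cells, and had B2m at 973 in CONV and 1476 in CONV AsiDNA. In the largest such cluster (165, 243 and 275) B2m was at 1875, 2550 and 2208, again lowest in CONV, whereas H2-D1 was highest in CONV there, at 2513, 2353 and 2350. Tapbp was at 325, 345 and 376 in that cluster, and in another (67, 169 and 182 cells) it was highest in CONV, at 284, 256 and 268. The direction of H2-D1 and Tapbp in EC-like cells thus differed between clusters.

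Fibroblast-like cells (66, 121 and 177 cells) gave the largest ratio of any gene compared in the set. H2-K1 was at 351 in CONV, against 232 in CONV AsiDNA and 45.9 in FLASH, a log2 ratio of 2.69 in CONV over FLASH and 2.12 in CONV AsiDNA over FLASH. It was above 0 in 20 of 66 cells, or 30.3% (19.6% to 42.9%), in 41 of 121, or 33.9% (25.5% to 43.0%), and in 8 of 177, or 4.52% (1.97% to 8.71%). FLASH stood apart from both irradiations at the conventional dose rate. H2-D1 was at 695, 514 and 338, past 2-fold in CONV over FLASH at 1.02. B2m was closer, at 948, 926 and 702. Of the genes that every cell uses, Actb was above 0 in 57.6%, 76.0% and 90.4% of fibroblast-like cells. For mt-Co1 the shares were 1.52%, 38.8% and 67.2%, highest in FLASH, and for Gapdh 33.3%, 14.9% and 19.2%, highest in CONV. What part this had in the H2-K1 difference was not tested.

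The inducible genes of fibroblast-like cells were low. Psmb8 was at 31.6, 1.95 and 0, Psmb9 at 10.5, 3.91 and 0 and Tap1 at 17.6, 3.91 and 1.39, with 5 of the 66 CONV cells above 0 for Psmb8. Psmb10, at 49.2, 21.5 and 45.9, had no such order. CONV was above both other libraries for 5 of 6 genes compared, beside 36.3% of all genes. Leukocyte genes were in 1.52%, 2.48% and 0% of these cells, and without them H2-K1 was at 329, 222 and 45.9.

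Other genes of the pathway were counted from fixed lists of 38 genes. Among 11 other class I heavy chain genes, 7 values were past 2-fold higher and 3 lower in CONV over CONV AsiDNA, and 9 higher and 3 lower in CONV over FLASH, over 85 and 84 values, beside the 6.4% and 7.02% of all genes past 2-fold. H2-T22 in AM-like cells was at 137, 59.3 and 52.0, higher in CONV, and in neutrophil-like cells at 11.96, 37.8 and 35.6, lower in CONV. H2-Q7, a Qa-2 heavy chain, was lower in monocyte-like cells of CONV, at 25.0, 127 and 116, and higher in IM-like cells of CONV, at 69.9, 17.3 and 28.9. H2-Q6, another Q-region gene, was at 62.8, 19.2 and 26.4 in AT2-like cells. Reads of closely related heavy chain genes may be assigned to one another. Of 451 words of 50 bases in the last 500 bases of the H2-K1 transcript 2 occurred in another gene, H2-D1. Of those of H2-D1 43 did, and the genes that shared the most of them were not heavy chain genes. None of the words of the other 8 genes did.

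For the chaperones of peptide loading 0 of 60 values were past 2-fold higher and 8 lower in CONV against CONV AsiDNA, beside 2.58% and 3.82% of all genes. Against FLASH 0 of 61 were higher and 3 lower, beside 3.42% and 3.60%. Their median log2 ratios were -0.39 and -0.20 beside -0.05 and -0.01 for all genes, and 0.18 in CONV AsiDNA over FLASH beside 0.03. Tapbpl, a tapasin relative, was at 14.4, 56.2 and 61.7 in NK-like cells, where Tapbp was low too, and Calr, the chaperone calreticulin, at 37.0, 115 and 96.4 in ILC2-like cells. For the constitutive proteasome and its regulators 1 value was higher and 3 lower of 95 against CONV AsiDNA, and 1 higher and 5 lower of 95 against FLASH, shares below the 6.4% and 7.02% of all genes. Psmb5, the constitutive subunit that Psmb8 replaces, was at 16.8, 65.0 and 56.8 in B-like cells and at 21.6, 78.6 and 123 in ILC2-like cells, lower in CONV. Psme1, a subunit of the proteasome activator PA28, was higher in CONV in AT1-like cells, at 214, 72.6 and 78.4.

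Among the transcription factors of class I genes 2 values were higher and 2 lower of 76 against CONV AsiDNA, and 2 higher and 3 lower of 73 against FLASH, near or below the same background. Rfx5, a subunit of the complex that binds class I promoters, was at 24.2, 2.89 and 3.33 in EC-like cells, higher in CONV, and Irf9, an interferon response factor, at 13.3, 47.6 and 56.1 in neutrophil-like cells, lower in CONV. For interferon gamma and its receptor pathway the counts were 3 higher and 2 lower of 55, and 5 higher and 2 lower of 55, beside the same 6.4% and 7.02%. Jak2, the kinase of the receptor, was at 92.1, 29.4 and 24.2 in AT2-like cells, where Psmb8 was highest in CONV, and at 14.4, 51.6 and 57.0 in NK-like cells. The receptors that read class I had 7 values and none past 2-fold in either CONV pair.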

How the data were processed

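Dissociated lung cells were encapsulated in droplets (10x Genomics 3′ chemistry), 1 library per mouse. The authors deposited, for each gene and cell, a natural log of a whole number plus 1. The submitters' processing notes name Cell Ranger 6.0.0 and mm10, and the methods R and Seurat; whether and how the values were adjusted, and whether cells were filtered or doublets removed, are points not given in the sources used here. Values were converted back (all within 1e-06 of a whole number) to whole numbers, called adjusted counts because their totals per cell had a narrow range, which total 23908890 (CONV), 26417388 (CONV AsiDNA) and 23383510 (FLASH). As they are not known to be raw counts, no count model, counting interval or floor was used. The labels give the 3 libraries a common date and name no batch. Another 4 tables hold the authors' own comparisons and 12 columns of per-sample values under identifiers that match no gene of these libraries; none of them was used.

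Cells with under 200 genes or over 20% mitochondrial counts were removed (3 of 19622). A cell was gated to the class with the highest share of its markers above 0, with at least 3 markers and 1.5 times the share of the next class, from 229 marker entries. Other cells stayed ungated, and no doublet caller was run in the main setting. Shares carry exact Clopper-Pearson 95% intervals.

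The 10 genes, the lists of companion genes and the tests were chosen with earlier results of these data known. Named were all 10 members; of each companion list, at most 3 genes past 2-fold in both CONV pairs in the same direction; and the 5 genes with the highest r to the mean profile. A further companion gene is not reported here. The leukocyte list, the splits by Gpnmb, Car4 and Cd8a, the genes that every cell uses, the letters AGTTTCACTT and the counts of genes with CONV above or below both other libraries were chosen after values were seen. Of the gene symbols, 22318 of 22954 matched the GENCODE annotation, used for positions only. The ratio function and the gate were tested on simulated data. Alternatives changed the gate, the clustering, the prior, the minimum sum, the weight of cells, the depth, the centring, the minimum of genes and the removal of likely doublets. The work used Python 3.11.15, scanpy 1.11.5, pandas 2.3.3, numpy 2.4.6, scipy 1.17.1, scikit-learn 1.9.0, igraph 0.11.9 and matplotlib 3.10.9.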

Additional observations from a re-analysis of the deposited data

Results flagged for a closer look

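A gene was picked out where it was past 2-fold in one class and at least 1.5-fold the other way in another class under the same pair of libraries. With 1 library per condition, the difference between the classes was not tested. B2m in CONV over CONV AsiDNA had a log2 ratio of 0.63 in AM-like cells and -2.38 in neutrophil-like cells, and in CONV over FLASH 0.87 and -2.40 in the same classes. Tap1 in CONV over FLASH was at 1.01 in IM-like cells and -0.76 in NK-like cells. Tapbp in CONV over FLASH was at 0.98 in ciliated-like cells and -1.63 in NK-like cells. Nlrc5 in CONV over CONV AsiDNA was at 1.55 in ILC2-like cells and -0.78 in NK-like cells.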

How the results depend on the processing

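No paired analysis was possible because each condition has 1 library. Over 13 alternatives, 3 of them added after the data were seen, no ratio past 2-fold changed direction. The count of values past 2-fold in CONV AsiDNA over FLASH, 3 in the report, was 5 with a prior of 1, 6 after thinning to 1000 adjusted counts, 6 with Leiden clusters in place of the gate, and 5 without the non-leukocyte cells that held a leukocyte gene. With a minimum sum of 50, CONV was above both other libraries for 3 genes in fibroblast-like and 3 in AT2-like cells, since fewer genes could be compared, and after thinning for 2 in AT2-like cells. The medians over the set and all the other counts moved by at most 1.5-fold. The 6 single ratios that moved by more than 1.5-fold kept their direction. When the top 6% of Scrublet scores were removed, 11 classes were left, and the ratios of monocyte-like, cDC2-like, AT1-like and fibroblast-like cells had no value. Without leukocyte-gene cells the H2-K1 ratio of AT1-like cells in CONV over FLASH was 2.69, and over all alternatives it ran from 0.56 to 2.69. Of the other ratios in CONV over FLASH, the call was lost under at least 1 alternative for H2-K1 in AM-like (lowest 1.00) and ciliated-like cells (0.91), H2-D1 in ciliated-like (0.66) and fibroblast-like cells (0.71), Tap1 in IM-like cells (0.95) and B2m in B-like cells (-0.91), and in CONV over CONV AsiDNA for B2m in AT1-like cells (-0.49). Thinning lowered 393 of 450 shares, by a median of 12.64 percentage points, and raised none. With 1 mouse per condition, the spread between mice is unknown. Low levels such as those of Nlrc5, and of Psmb9 in AT2-like cells, rest on few cells.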
